A study of Mus musculus with 4 samples.

Results

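The response of the kidney labelled Tet2 knockout to ischemia-reperfusion was read as the log2 signal of 1 array after injury minus that of 1 array after sham surgery. These were 2 of the 4 arrays of the study, and all 34945 of 45037 probe sets that list exactly 1 gene symbol were used, which gave 18193 genes. The study set Tet2 knockout against wild type, with sham surgery or renal ischemia for 60 min and reperfusion for 24 h in each genotype. All 4 groups were whole kidneys of male C57Bl/6 mice: knockout-labelled sham, knockout-labelled ischemia-reperfusion, wild-type sham and wild-type ischemia-reperfusion. Every array held RNA pooled from 3 mice, so the spread between mice is unknown, and no difference below has a replicate check or a test. The allele of the knockout, the cells that lack Tet2 and the age of the mice are not given in the sources used here.

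TET2, the protein made from Tet2, oxidises the methyl groups that mark cytosines in DNA. When the blood supply of a kidney is clamped and released, the proximal tubule, which does most of the reabsorption and runs on fatty acid and amino acid oxidation, is damaged most. Surviving tubule cells then lose transporters and metabolic enzymes, flatten and spread over the bared basement membrane, and switch on genes of wound repair and protein synthesis. Whole-kidney RNA mixes all of these cells, so fewer cells of a type and less RNA per cell cannot be told apart in any value below.

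A gene counted as measured when its signal was at or over a floor (log2 signal 5.72) in either array of the pair, and 13600 genes were. A gene is called higher or lower below when the signals differed 2-fold or more, a log2 ratio past 1. Of the measured genes, 824 (6.06%) were higher and 937 (6.89%) lower after ischemia-reperfusion. At 4-fold or more the counts were 180 and 219, and at 16-fold or more 23 and 11. In the wild-type pair 279 of 13531 genes (2.06%) were higher and 295 (2.18%) lower. The median log2 ratio of all measured genes was -0.02 in the knockout-labelled pair and 0.02 in the wild-type pair. Probe sets of the same gene differed in their log2 ratio by an SD of 0.41 in the knockout-labelled pair (5092 genes) and 0.24 in the wild-type pair, a measure of technical error that does not cover differences between mice.

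The Tet2 signals did not separate the genotypes. One Tet2 probe set read 9.87 in knockout-labelled sham and 9.96 in wild-type sham, and the other read 10.25 and 9.84. Where in the transcript a deletion would lie is not given, so these probe sets do not check the label. After ischemia-reperfusion both read lower in the knockout-labelled pair, by log2 ratios of -1.13 and -1.65. Tubule markers stood high in all 4 arrays, with Umod, the uromodulin of the thick ascending limb, between 14.02 and 14.52 on its brighter probe set. They were not steady in the knockout-labelled pair. Umod had a log2 ratio of -0.40 and Aqp2 0.18, but Slc12a1 had -2.47, Slc12a3 -1.27 and Slc34a1 -1.21. Among markers of other tissues, 7 of the 10 measured fat genes were higher and 1 lower in the knockout-labelled pair, while in the wild-type pair 0 of 11 were higher and 5 lower. The linear signals of the 12 matched fat genes summed to 32926 in knockout-labelled sham, 23981 after injury, 37754 in wild-type sham and 27195 in injured wild type. Under the floor were 6, 2, 1 and 6 of them, and Adipoq, the adiponectin of fat cells, was under it in knockout-labelled sham and in injured wild type. A sum of linear signals weighs the brightest genes most. In the knockout-labelled pair it was lower after injury, although 8 of the 10 measured fat genes had a log2 ratio above 0. Of 6 adrenal markers 0 were called, of 7 lymphocyte markers 2 were lower, and of 8 muscle markers 1 was lower, Pvalb, which the distal tubule also makes. The difference of the responses between genotypes was not tested.

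Single genes were first read where 2 or more probe sets all passed 2-fold in the same direction. Of 5618 genes with 2 or more probe sets, 119 were higher and 164 lower on every one. The 15 largest of each direction were followed in detail, as shown in the plot of their signals in the 4 arrays. Steap1, a metalloreductase of the cell membrane, read 7.48 in knockout-labelled sham and 12.08 after injury, 24.3-fold higher, against 7.77 and 9.68 in wild type. Slc25a24, a mitochondrial ATP-magnesium/phosphate carrier, went from 7.06 to 11.60 (23.3-fold), against 7.38 to 10.22 in wild type. Sphk1, which makes sphingosine 1-phosphate, went from 7.59 to 10.70 (8.59-fold), while the wild-type arrays read 7.70 and 8.15.

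In the other direction, Cyp7b1, a hydroxylase of oxysterols and steroids, read 13.57 in knockout-labelled sham and 7.43 after injury, 70.7-fold lower, against 13.57 and 11.95 in wild type. Cxcl12, a chemokine of stromal and tubule cells, went from 11.12 to 7.46 (12.7-fold lower), against 11.55 to 10.91 in wild type. Sfrp1, a secreted Wnt inhibitor, went from 11.04 to 7.53 (11.4-fold lower), against 10.69 to 10.03. Of the 15 genes on each side, 12 of the higher and 11 of the lower also passed 2-fold in the wild-type pair. The other higher genes were Sphk1 and Pdlim7, an actin-associated scaffold, with D17H6S56E-5. The other lower genes were Cxcl12 and Sfrp1 with Abca13 and Slc8a1, a sodium-calcium exchanger.

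**Figure D1:**
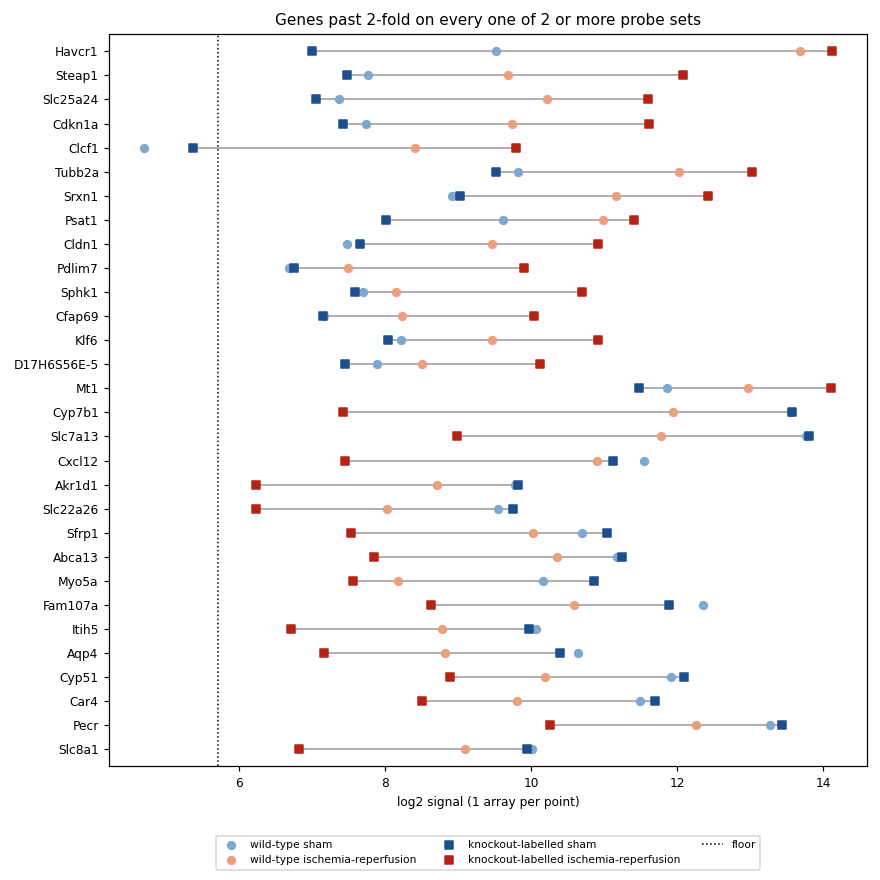
Log2 signal (horizontal axis, 1 array per point) of the 15 higher and 15 lower genes with the largest log2 ratios among genes whose probe sets all passed 2-fold the same way in the knockout-labelled pair; grey lines join the knockout-labelled arrays and the dotted line is the floor at 5.72. Cyp7b1 spans 13.57 to 7.43 and Steap1 7.48 to 12.08 in the knockout-labelled pair, and the wild-type ischemia-reperfusion point of each lies between these ends.

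Families and pathways were then read as lists. Outside the markers of other cells there were 76 lists. In 5 of them no measured member was called, in 19 members were called higher only, in 11 lower only and in 41 in both directions. The plot of families and pathways by percent called shows amino acid catabolism at one end, with 72.3% of members lower, and tubulins, S100 proteins, annexins and actin filament genes at the other, each with 46.8% or more higher.

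**Figure D2:**
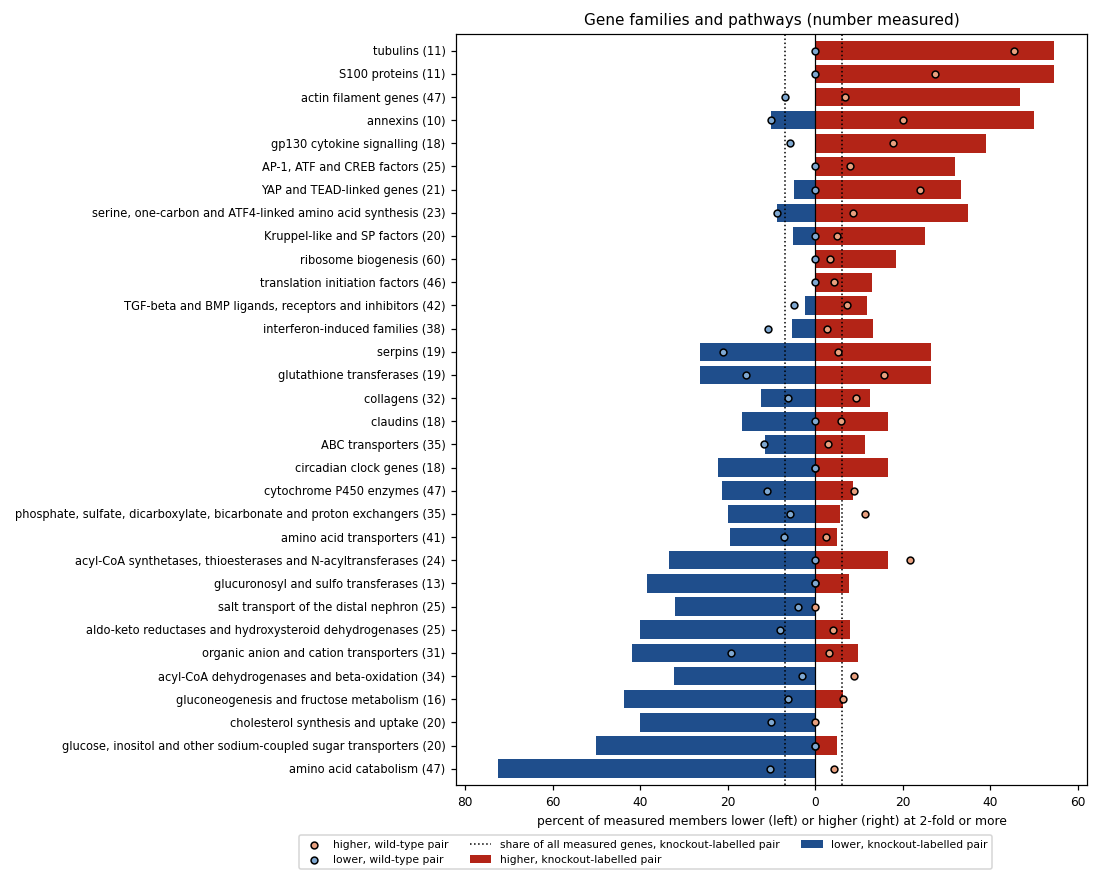
Percent of the measured members of each list that were lower (left, blue) or higher (right, red) at 2-fold or more in the knockout-labelled pair, with the wild-type pair as circles; the lists drawn have 10 to 99 measured members and 6 or more called, and dotted lines mark the shares among all measured genes (6.06% higher, 6.89% lower). Amino acid catabolism extends 72.3% to the left and 0% to the right, actin filament genes 46.8% to the right and 0% to the left, and glutathione transferases 26.3% to each side.

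Enzymes that break down amino acids had the highest percent lower of the lists drawn. Of 47 measured members, 34 were lower and 0 higher in the knockout-labelled pair, with a median log2 ratio of -1.50. In the wild-type pair 5 of 48 were lower and 2 higher, with a median of -0.35. The knockout-labelled ischemia-reperfusion array held the lowest of the 4 signals for 43 of the 47, against 38.2% of all measured genes. With the wild-type sham array as the control, 34 were lower and 1 higher, beside 6.61% lower and 6.38% higher among all genes so compared. The choice of sham array therefore left the count of lower members at 34.

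The largest ratios of the list belonged to enzymes of several routes. Aadat, which transaminates kynurenine and aminoadipate, read 12.31 in knockout-labelled sham and was 9.97-fold lower after injury, against 12.59 and 10.97 in wild type. Hao2, a peroxisomal hydroxyacid oxidase, went from 13.05 to 9.84 (9.23-fold lower), and from 13.23 to 12.35 in wild type. Hpd, which opens the breakdown of tyrosine after transamination, went from 10.13 to 7.17 (7.78-fold lower), and from 11.19 to 10.82 in wild type. Gatm makes the creatine precursor guanidinoacetate and Ddo oxidises D-aspartate. Gatm went from 12.40 to 9.51 and Ddo from 10.16 to 7.36, while the other probe sets of Ddo had log2 ratios between -1.84 and -0.05.

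Other members are given here by their place in a route, chosen after their values were seen. In the kynurenine route of tryptophan breakdown, Afmid (-1.71), Kmo (-1.62), Kyat3 (-2.53) and Haao (-2.42) were all lower, and Qprt, which leads on to NAD, had a log2 ratio of -0.55. In the tyrosine route below Hpd, the ratios were -1.80 for Hgd, -1.40 for Gstz1 and -1.21 for Fah, the last enzyme of the route. The transsulfuration enzymes Cbs and Cth, which carry homocysteine to cysteine, had log2 ratios of -2.51 and -2.68. In the breakdown of choline and glycine derivatives, Dmgdh (-1.71), Sardh (-1.84) and Pipox (-1.95) were lower. The branched-chain keto acid dehydrogenase subunits Bckdhb and Dbt had ratios of -1.67 and -1.48, and the leucine enzymes Ivd, Mccc1 and Mccc2 had -1.52, -1.42 and -2.06.

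Not every member was lower. Oat, which degrades ornithine, had a log2 ratio of -0.18, Prodh -0.15 and Ddc -0.07. Only Kyat1 (0.14) and Gldc (0.91), the decarboxylase of the glycine cleavage system, read higher after injury than in sham, both short of 2-fold. In the wild-type pair Gldc had a ratio of 1.39. Hao1, Kynu and Tdo2 were under the floor in both knockout-labelled arrays.

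**Figure D3:**
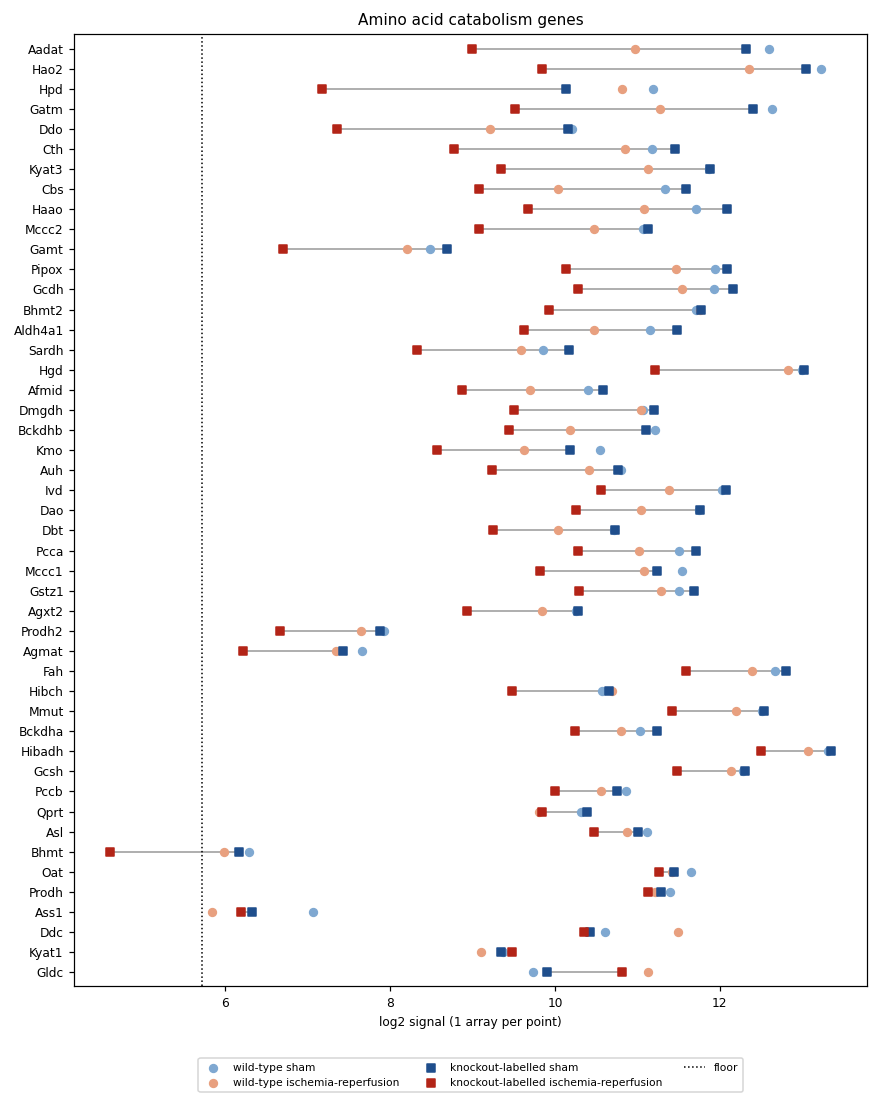
Log2 signal (horizontal axis, 1 array per point) of the 47 measured amino acid catabolism genes, ordered by their log2 ratio in the knockout-labelled pair; grey lines join the knockout-labelled arrays and the dotted line is the floor. The knockout-labelled ischemia-reperfusion point is the lowest of the 4 for 43 genes, and only Kyat1 and Gldc have it to the right of knockout-labelled sham.

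Promoters of genes from this list are shown because their letters include motifs of factors of proximal tubule identity, HNF1 and HNF4. HNF1 is a homeodomain factor and HNF4 a nuclear receptor, and both drive transporter and enzyme genes in the tubule. The windows come from the RefSeq promoter table (build GRCm38.p6, 250 bases before to 50 after each gene's start), read 5′ to 3′ on the gene's strand, and are cut around the match. Capitals mark the HNF1 motif GTTAATNA or the HNF4 motif CAAAGTCCA, searched on both strands. The windows are Haao at chr17:83846776-83846883 (minus strand), Hao2 at chr3:98893397-98893480 (minus strand), Aadat at chr8:60506002-60506110 (plus strand), Pipox at chr11:77893823-77893907 (minus strand) and Agxt2 at chr15:10358462-10358570 (plus strand).
Haao, HNF1: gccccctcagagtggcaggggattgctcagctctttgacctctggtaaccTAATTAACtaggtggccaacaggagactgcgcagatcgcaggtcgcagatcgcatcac
Hao2, HNF1: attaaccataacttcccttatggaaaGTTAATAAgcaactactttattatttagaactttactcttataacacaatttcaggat
Aadat, HNF4: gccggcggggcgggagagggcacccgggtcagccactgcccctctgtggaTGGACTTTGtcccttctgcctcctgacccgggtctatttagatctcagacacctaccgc
Pipox, HNF4: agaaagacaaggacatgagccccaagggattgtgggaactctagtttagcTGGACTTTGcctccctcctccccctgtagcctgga
Agxt2, HNF4: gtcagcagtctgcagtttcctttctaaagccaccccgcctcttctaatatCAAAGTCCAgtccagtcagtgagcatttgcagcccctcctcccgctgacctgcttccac
The HNF1 letters stood in 2.54% of all 32851 promoters of the table, in 1.76% of those of measured genes, in 3.95% of those of the lower genes and in 1.33% of those of the higher genes. The HNF4 letters stood in 0.475% of all promoters, in 0.523% of those of measured genes, in 1.35% for the lower genes and in 0.361% for the higher genes. At 4-fold or more, HNF1 letters stood in 15 of 222 promoters of lower genes (6.76%) and 6 of 177 of higher genes (3.39%). HNF4 letters stood in 2 (0.901%) and 0 (0%) of these. At 2-fold the HNF4 shares rested on 13 promoters of lower and 3 of higher genes. In the wild-type pair, at 2-fold, HNF1 letters stood in 3.92% for the lower and 2.41% for the higher genes. HNF4 letters stood there in 1.18% and 0.687%. A match is a description of letters, not a site, and 6 promoters of the table held both motifs.

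Genes of fuel oxidation outside the amino acids were called lower in smaller numbers, and oxidation itself was not measured. Of 34 measured beta-oxidation genes, 11 were lower and 0 higher (median -0.60), against 1 lower and 3 higher of 34 in the wild-type pair (median 0.08). Acox2, a peroxisomal oxidase of branched fatty acids and bile acid intermediates, read 11.23 in knockout-labelled sham and 7.48 after injury (13.5-fold lower), against 10.76 and 10.66 in wild type. Acadm, the medium-chain dehydrogenase of mitochondria, went from 14.30 to 12.72 (2.98-fold lower), against 14.28 to 13.93. Crot and Eci3, also of the peroxisome, had log2 ratios of -1.94 and -2.60. The acyl-CoA synthetases and thioesterases were split, with 8 of 24 lower and 4 higher. The lower ones included Acss2, which activates acetate (-3.04), and the medium-chain synthetases Acsm5 (-2.94), Acsm3 (-2.42) and Acsm1 (-1.26). The higher ones were Acsl4 (1.85), Acot2 (1.41), Acot1 (1.08) and Acsl5 (1.02), which passed 2-fold in the wild-type pair too, with 1.71, 1.28, 1.25 and 1.16.

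Of 16 gluconeogenesis and fructose genes, 7 were lower and 1 higher (median -0.85). G6pc, which releases free glucose in the last step, went from 12.07 to 9.68 in the knockout-labelled pair (5.25-fold lower) and from 12.44 to 11.13 in wild type. Khk, the ketohexokinase that traps fructose, went from 12.80 to 10.68 (4.36-fold lower) and from 12.96 to 12.24 in wild type. Fbp1 had a log2 ratio of -1.15, whereas Fbp2, the muscle-type fructose bisphosphatase, read 7.37 in sham and 9.70 after injury. Of 22 glycolysis genes 3 were higher and 2 lower, and their median ratio was 0.01. The higher ones were Slc16a1, a lactate transporter (2.70), Hk2 (1.56) and the glucose transporter Slc2a1 (1.17), and the lower ones Aldoc (-1.81) and Pdk1 (-1.61). Slc2a1 had 0.94 on plain _at probe sets alone, and Pdk1 had -0.73 as the median over its probe sets.

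The tricarboxylic acid cycle and the respiratory chain had small negative ratios across most genes. In the respiratory chain 76 of 81 measured genes had a log2 ratio below 0, with a median of -0.42, beside 51.7% below 0 among all measured genes. Only Cox7a1 (-1.61) and the complex I subunit Ndufs1 (-1.32) passed 2-fold downward. Cox8b, a subunit of brown fat and muscle, was higher by at least 3.50-fold and is on the list of fat markers, whose part in its value was not tested. Of 26 cycle genes 24 were below 0 (median -0.45), and Idh2 (-1.31) and Me1 (-1.09) passed 2-fold, although on plain _at probe sets alone these had 0.30 and -0.47. The injured knockout-labelled array held the lowest of the 4 signals for 71 of the 81 respiratory chain genes.

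Sterol synthesis genes were called lower only. Of 20 measured genes 8 were lower and 0 higher (median -0.70), against 2 lower and 0 higher in the wild-type pair (median 0.02). Cyp51, the sterol demethylase, read 12.10 in knockout-labelled sham and 8.89 after injury (9.24-fold lower), against 11.92 and 10.19 in wild type. Idi1, the isopentenyl diphosphate isomerase, went from 12.17 to 9.55 (6.18-fold lower), against 11.76 to 10.61. Ebp (-1.45), Insig1 (-1.25), Stard4 (-1.14), Dhcr7 (-1.12), Hmgcs1 (-1.10) and Mvd (-1.07) were nearer the threshold. Against wild-type sham only 4 of the 8 passed it.

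Steroid and drug metabolism genes were called in both directions. Of 47 cytochrome P450 genes 10 were lower and 4 higher. Cyp27b1, the hydroxylase that makes active vitamin D, read 6.45 in knockout-labelled sham and 11.36 after injury, 30.1-fold higher. In wild type it read 6.58 in sham and was under the floor after injury, so the array of injured knockout-labelled kidney stood apart from the other 3. Cyp4a14, which hydroxylates fatty acids, went from 8.57 to 11.69 in the knockout-labelled pair (8.71-fold higher), while in wild type it went from 7.73 to 13.51. The lower P450 genes after Cyp7b1 and Cyp51 were Cyp2j11 (-2.73), Cyp2d26 (-2.27) and Cyp2d9 (-1.81).

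Of 25 aldo-keto reductases and hydroxysteroid dehydrogenases, 10 were lower and 2 higher. Akr1c14 went from 13.63 to 9.34 (19.6-fold lower), and Akr1c18 (-3.89), Akr1d1 (-3.59) and Akr1c21 (-3.45) followed, all reductases of steroids. Akr1b8 stood on the other side with a ratio of 3.88. Glutathione transferases were split 5 and 5 of 19, led upward by Mgst1 (2.09) and Gstm5 (1.38) and downward by Gstp3 (-2.97) and Gstk1 (-1.71). Gsta4 had 1.08 in the knockout-labelled pair, -1.11 in the wild-type pair and -0.12 against wild-type sham. Of 13 glucuronosyl and sulfo transferases 5 were lower and 1 higher, among them Ugt2b37 (-2.38, but -0.70 against wild-type sham) and Ugt3a1 (-2.35). Members of the Cyp2d, Cyp2j, Akr1c, Ugt2b and Slc22a families and the tubulins resemble one another in sequence, so a probe set may bind a relative.

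Many genes of carriers that take solutes out of the blood or reabsorb them from the urine were called lower. Transport itself was not measured. Of 31 organic anion and cation transporters 13 were lower and 3 higher (median -0.79), against 6 lower and 1 higher in the wild-type pair. Slc22a19, an organic anion transporter, read 12.78 in knockout-labelled sham and 7.27 after injury (45.6-fold lower), against 12.21 and 11.09 in wild type. Slc22a7, also an organic anion transporter, went from 12.38 to 7.74 (25.0-fold lower), against 12.56 to 11.15. Slc22a13 and Slc22a22 followed with -3.92 and -3.80. Slco2a1, the prostaglandin transporter, was the highest of the list with 1.89 in both pairs.

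The amino acid carriers showed fewer calls, with 8 of 41 lower and 2 higher. Slc7a13, an aspartate, glutamate and cystine carrier of the proximal straight tubule, went from 13.80 to 8.98 (28.2-fold lower), and from 13.77 to 11.79 in wild type. Slc6a20b (-2.75), Slc6a13 (-1.92), Slc7a12 (at least 3.41-fold lower) and Slc3a1, the heavy chain of the cystine transporter (-1.64), were next. Slc38a2, which imports neutral amino acids and is induced when they are scarce, went from 10.40 to 12.14 (3.35-fold higher), against 10.47 to 10.95 in wild type. Its other probe sets gave 0.22 to 1.17.

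Carriers of sugars and other sodium-coupled solutes were called in the knockout-labelled pair only, by count. Of 20 measured, 10 were lower and 1 higher in the knockout-labelled pair (median -0.93), and 0 in either direction in the wild-type pair (median -0.17). The difference between the pairs was not tested. Slc5a8, a lactate and short-chain fatty acid carrier, read 12.19 in knockout-labelled sham and 8.18 after injury, and was thus lower by more than any other carrier of the list, against 12.12 and 11.21 in wild type. The glucose carrier Slc5a1 (SGLT1) went from 10.11 to 8.56, and its second probe set gave -1.61, while in wild type it read 9.91 and 10.50. The fructose carrier Slc2a5 had -1.85, Slc5a10 -1.38 and Slc5a12, a second lactate carrier, -1.40. Against wild-type sham the counts were again 10 lower and 1 higher.

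Phosphate carriers went both ways. Slc34a1 and Slc34a3, the sodium-phosphate carriers of the brush border, had log2 ratios of -1.21 and -1.94. Slc20a1, a ubiquitous sodium-phosphate carrier, was 4.26-fold higher, from 9.44 to 11.53, and Slc34a2 had 1.82. In the wild-type pair these 4 genes had -0.86, -1.61, 1.94 and 2.37. The dicarboxylate carriers Slc13a2 (-1.94) and Slc13a3 (-1.68) were lower, with 0.27 and 0.06 in wild type. Slc4a1, the anion exchanger of intercalated cells and of red blood cells, was at least 9.88-fold lower. The other measured red blood cell markers, Alas2, Rhd, Hba-a2 and Hbb-b2, had ratios between -0.51 and 0.99.

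Distal nephron salt transport genes were called lower only. Of 25 salt transport genes 8 were lower and 0 higher, against 1 and 0 in wild type. Slc12a1, the target of loop diuretics, went from 13.60 to 11.13 (5.52-fold lower), against 13.81 to 13.02 in wild type. Kcnj1, the potassium channel that works with it, went from 11.57 to 9.57 (3.98-fold lower), against 11.83 to 11.44. Slc12a3, the thiazide-sensitive carrier, had -1.27, the calcium-binding Calb1 -2.22, Bsnd -1.20 and the sodium channel subunit Scnn1g -1.14. Against wild-type sham Scnn1g had -0.97. Of 49 potassium channel genes 5 were lower and 0 higher, that is 10.2% lower beside 6.89% of all measured genes. Aqp1, the water channel of the proximal tubule and thin limb, went from 13.26 to 10.49.

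Claudins, which seal or open the path between cells, were split 3 and 3 of 18. Cldn10 (-2.88), Cldn8 (-1.68) and Cldn16 (-1.36), paths for ions in the thick limb and distal nephron, were lower. Cldn4, a sealing claudin, read 7.55 in knockout-labelled sham and 11.64 after injury, a log2 ratio of 4.09, whereas the wild-type arrays read 8.84 and 8.73. Cldn1 went from 7.67 to 10.91 (9.49-fold higher), against 7.49 to 9.46 in wild type. Cldn7 had a ratio of 1.61.

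Cytoskeletal genes were called higher across much of their lists. Of 47 measured actin filament genes, 22 were higher and 0 lower (median 0.97), against 3 higher and 3 lower of 44 in the wild-type pair (median 0.21). Against wild-type sham 20 were higher and 0 lower. The injured knockout-labelled array held the highest of the 4 signals for 36 of the 47, against 36.6% of all measured genes. Pdlim7 read 6.75 in knockout-labelled sham and 9.90 after injury (8.88-fold higher), against 6.69 and 7.49 in wild type. Actn1, a cross-linker of actin, went from 9.26 to 11.76, but its other probe sets gave 0.75 to 1.01. Capg (2.37) and Tpm4 (2.35), which cap and coat filaments, passed 2-fold in the wild-type pair too, with 1.14 and 1.29.

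Acta2, the actin of smooth muscle and myofibroblasts, went from 8.87 to 11.26 in the knockout-labelled pair (5.25-fold higher) and from 9.70 to 8.95 in wild type. Tagln, chosen after its values were seen, had 2.05 and -1.10, and Myl9, chosen likewise, had -0.04 and -2.20. The difference between the pairs was not tested for these genes. Of 11 tubulins 6 were higher and 0 lower, against 5 and 0 in wild type. Tubb2a went from 9.53 to 13.02 (11.3-fold higher), with 1.49 on its second probe set, and from 9.82 to 12.03 in wild type. Tuba1a went from 10.08 to 12.42 (5.05-fold higher) in the knockout-labelled pair and read 10.38 and 10.43 in wild type.

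**Figure D4:**
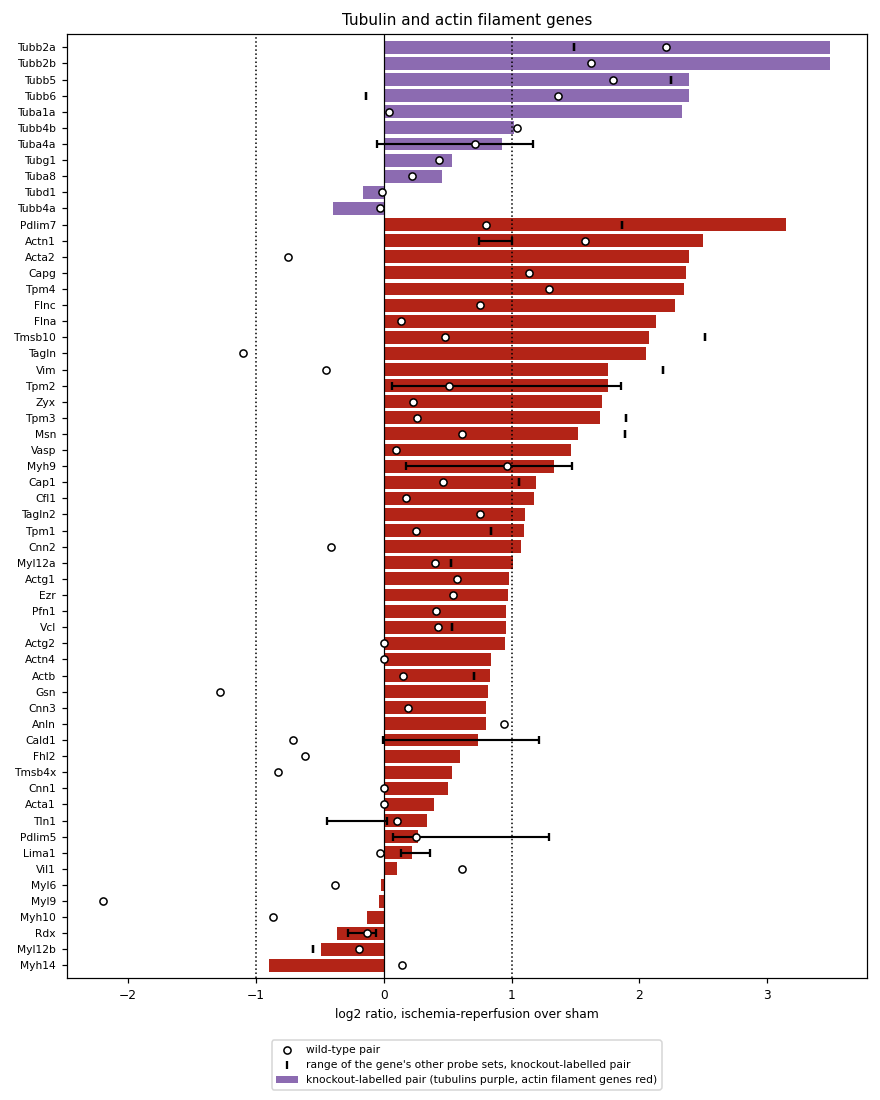
Log2 ratio (horizontal axis, ischemia-reperfusion over sham) of the 11 tubulin and 47 actin filament genes measured in the knockout-labelled pair (bars), with the wild-type pair as circles and the range of the gene's other probe sets in the knockout-labelled pair as black marks; dotted lines mark 2-fold. Bars pass 2-fold to the right for 6 tubulins and 22 actin filament genes and to the left for none, and Acta2 and Tagln have circles left of 0.

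Keratins, integrins and matrix genes followed in smaller numbers. Of 23 keratins 4 were higher: Krt20 (at least 162-fold), Krt18 (10.4-fold), Krt19 (6.51-fold) and Krt8 (2.64 on the log2 scale), all of simple or transitional epithelium. In Krt18 the sham arrays were themselves apart, at 7.12 in knockout-labelled and 9.31 in wild type, and against wild-type sham its log2 ratio was 1.20. Krt19 likewise read 6.14 and 7.65 in the sham arrays and had 1.19 against wild-type sham. Of the 9 measured urothelial markers 2 were higher and 1 lower. The linear signals of the 10 matched markers summed to 5346 in knockout-labelled sham, 3077 after injury, 7148 in wild-type sham and 5623 in injured wild type, with 3, 1, 1 and 1 of them under the floor. The sum was lower after injury in the knockout-labelled pair, although 8 of the 9 measured markers had a log2 ratio above 0 (median 0.70, lowest -1.80). Their part in the keratin values was not tested. Of 24 integrins 3 were higher: Itga3 (2.03, and 0.83 as the median over its probe sets), Itga6 (1.32) and Itga7 (1.13).

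Among 32 collagens 4 were higher and 4 lower. Higher were the basement membrane chains Col18a1 (1.87), Col4a1 (1.37) and Col4a2 (1.03) with Col12a1 (1.46), and lower were Col14a1, Col4a3 and Col6a3 with Col5a2. Col5a2 reads -1.50 with its own sham array and 1.50 with wild-type sham, so its direction rests on the control array. Col6a3 (-1.07) had -0.68 against wild-type sham, and Col4a1 had 0.85 as the median over its probe sets. Timp1, an inhibitor of metalloproteinases, went from 5.89 to 8.91 (8.10-fold higher), and the metalloproteinase Adam8 had 2.74.

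Annexins and S100 proteins bind calcium and act in membrane repair and inflammation. Of 10 annexins 5 were higher and 1, Anxa13 (-1.66), lower. Anxa3 went from 7.68 to 12.30 in the knockout-labelled pair (24.6-fold higher) and from 7.81 to 11.14 in wild type. Anxa2 went from 9.75 to 12.96 (9.23-fold higher) and from 10.55 to 12.09 in wild type. Of 11 S100 genes 6 were higher and 0 lower, with S100a10, the partner of Anxa2, at 2.10. S100a6 read 7.84 in knockout-labelled sham and 13.03 after injury (36.5-fold higher), but 10.58 in wild-type sham, so that its log2 ratio against that array was 2.45. S100a8, a neutrophil protein, was at least 19.8-fold higher and S100a9 14.4-fold.

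S100a8 and S100a9 are also on the list of neutrophil markers. Of 11 measured neutrophil markers 4 were higher: Lcn2, S100a8, S100a9 and Il1r2, which had 0.90 with the floor at the 50th percentile. Of the 6 markers at or over the floor in both arrays 1 was higher, with a median log2 ratio of 0.03. The linear signals of the 14 matched markers summed to 843 in knockout-labelled sham, 14955 after injury, 844 in wild-type sham and 5142 in injured wild type, with 8, 3, 7 and 5 of them under the floor. Lcn2, which is also made by injured tubules, had the largest log2 ratio of the list, at least 7.85, against 4.31 for S100a8 and 3.85 for S100a9. A sum of linear signals weighs the brightest markers most, so this sum is not a measure of neutrophils alone. The granule genes Camp, Ltf, Ngp and Elane, which mark maturing neutrophils, had log2 ratios between -0.35 and 0.14. The part of neutrophils in the S100a8 and S100a9 values was not tested. Of 18 macrophage and dendritic cell markers 2 were higher and 5 lower, with Cd14 20.5-fold higher and Csf1r (-2.27) and the class II gene H2-Ab1 (-1.29) lower.

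Serpins, which inhibit proteases, were called in both directions. Of 19 measured 5 were higher and 5 lower. The lower genes were Serpina1f (20.1-fold), Serpina6, Serpina1b and Serpina1c of the secreted clade, with Serpinf2. The higher ones were the intracellular Serpinb6a (7.89-fold), Serpinb9 (1.79), Serpinb1a (1.70) and Serpinb6b (1.65), with the acute phase gene Serpina3n of the secreted clade, which went from 5.80 to 9.15. Of 8 galectins 3 were higher, led by Lgals3, which went from 10.40 to 13.86 (11.0-fold higher).

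In the lists of protein synthesis given here, no member was called lower. Of 60 ribosome biogenesis genes 11 were higher (18.3%, beside 6.06% of all measured genes) and 0 lower. Of these 60 genes 56 had a ratio above 0, beside 48.2% above 0 among all measured genes. Their median was 0.61 in the knockout-labelled pair and 0.54 in the wild-type pair, where 2 were higher. Taf1d (1.55, and 0.90 as the median over its probe sets), Rrp12 (1.43), Utp14a (1.34), Mybbp1a (1.33) and Nop58 (1.31) led the list. Of 46 initiation factors 6 were higher and 0 lower. Eif4ebp1, which restrains cap-dependent translation and is a target of ATF4, went from 8.92 to 11.86 (7.63-fold higher), with 0.44 on its other probe set. Eif6, an anti-association factor of the large ribosomal subunit, had 2.04. Cytosolic ribosomal proteins were above 0 for 42 of 45 genes with a median of 0.31, while mitochondrial ones were below 0 for 55 of 76 with a median of -0.16. Called higher were 2 of the cytosolic (4.44%) and 2 of the mitochondrial ones (2.63%). The chaperonin and prefoldin list had 0 of 15 called.

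ATF4 induces genes of serine and one-carbon synthesis when amino acids run short. Of 23 measured genes of this list 8 were higher and 2 lower (median 0.65), against 2 and 2 in the wild-type pair (median 0.21). On plain _at probe sets alone 16 were measured in the knockout-labelled pair, and 3 were higher and 3 lower (median 0.40). Psat1, the serine-route transaminase, read 8.02 in knockout-labelled sham and 11.42 after injury (10.5-fold higher), with 3.68 on its second probe set, against 9.61 and 10.99 in wild type. Phgdh, the first enzyme of that route, went from 8.23 to 10.67 (5.42-fold higher), against 8.46 to 8.80. Chac1, which degrades glutathione, went from 6.75 to 8.52 (3.40-fold higher), against 6.96 to 7.06. Mthfd1l (1.85), Cebpb (1.37), Atf5 (1.30) and Asns (1.25) were also higher, and the hydroxymethyltransferases Shmt1 (-1.56) and Shmt2 (-1.12, and -0.87 against wild-type sham) lower.

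Nupr1, a stress-induced chromatin protein on that list, went from 7.86 to 9.99 in the knockout-labelled pair and from 10.48 to 8.31 in wild type. Against wild-type sham its log2 ratio in the injured knockout-labelled array was -0.49. Promoter windows of 3 of these genes are shown for the ATF4 composite motif TGATGNAA, marked in capitals on either strand. They are Chac1 at chr2:119350999-119351106 (plus strand), Nupr1 at chr7:126625523-126625630 (minus strand) and Asns at chr6:7693175-7693282 (minus strand), from the same RefSeq table of GRCm38.p6.
Chac1, ATF4: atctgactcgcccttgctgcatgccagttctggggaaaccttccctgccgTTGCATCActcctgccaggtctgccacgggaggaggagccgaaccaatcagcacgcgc
Nupr1, ATF4: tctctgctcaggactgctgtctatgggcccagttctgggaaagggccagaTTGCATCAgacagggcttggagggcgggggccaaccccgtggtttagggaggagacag
Asns, ATF4: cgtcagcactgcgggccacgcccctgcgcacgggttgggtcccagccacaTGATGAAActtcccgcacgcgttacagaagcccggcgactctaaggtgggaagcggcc
The motif stood in 3.97% of all promoters, in 2.25% of those of measured genes, in 1.93% of those of the higher genes and in 2.80% of those of the lower genes, so its share among the higher genes was not above that of all measured genes.

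AP-1, ATF and CREB factors include immediate early genes of injury. Of 25 measured in the knockout-labelled pair 8 were higher and 0 lower (median 0.60), against 2 and 0 in wild type (median 0.03). Against wild-type sham the counts were 5 and 1. Fosl1 was at least 6.07-fold higher, with 0.83 on its second probe set. Fosl2 went from 7.09 to 9.79 (6.51-fold higher), with 0.29 on its second, against 8.06 to 8.42 in wild type. Maff went from 6.08 to 9.06 (7.88-fold higher), against 6.19 to 7.82. Atf3 (2.02), Junb (1.89), Jun (1.51), Crem (1.38) and Atf5 made up the rest. Against wild-type sham 3 of the 8 no longer passed 2-fold: Junb (0.65), Jun (0.88) and Atf3 (0.996).

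The AP-1 motif TGANTCA was more frequent in promoters of higher genes than in those of measured genes. It stood in 7.81% of all promoters and in 5.41% of those of measured genes. In the knockout-labelled pair it stood in 9.28% of those of the higher genes and in 6.44% of those of the lower genes. In the wild-type pair these shares were 10.3% and 5.49%. At 4-fold or more in the knockout-labelled pair, the shares were 17.5% for higher and 6.76% for lower genes. This level was chosen after the data were seen, and its shares are in the plot of motif shares. The CRE (TGACGTCA), NF-kappaB (GGGACTTTC), STAT (TTCCNGGAA) and E-box (CACGTG) motifs stood in 2.53%, 0.843%, 2.05% and 10.6% of the promoters of the higher genes, against 2.70%, 0.344%, 1.22% and 9.57% of those of measured genes. AP-1 and ATF4 letters met in 124 promoters and AP-1 and CRE letters in 19, counted over the whole table. Windows of 4 higher genes are shown with the AP-1 letters in capitals, at chr9:69453538-69453644 (plus strand) for Anxa2, chr5:134947118-134947184 (minus strand) for Cldn4, chr11:116531737-116531843 (plus strand) for Sphk1 and chr2:152105372-152105478 (plus strand) for Srxn1, a peroxiredoxin-repair gene 10.5-fold higher.
Anxa2, AP-1: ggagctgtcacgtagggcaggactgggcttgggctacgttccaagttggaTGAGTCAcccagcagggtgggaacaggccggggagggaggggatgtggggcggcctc
Cldn4, AP-1: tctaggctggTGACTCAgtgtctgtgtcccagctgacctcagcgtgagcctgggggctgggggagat
Sphk1, AP-1: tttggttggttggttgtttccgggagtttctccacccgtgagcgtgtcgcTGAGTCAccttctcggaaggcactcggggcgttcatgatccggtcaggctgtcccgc
Srxn1, AP-1: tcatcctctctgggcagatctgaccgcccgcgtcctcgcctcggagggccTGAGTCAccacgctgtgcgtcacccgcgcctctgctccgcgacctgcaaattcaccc
All 4 matches lie before the annotated start of the gene.

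**Figure D5:**
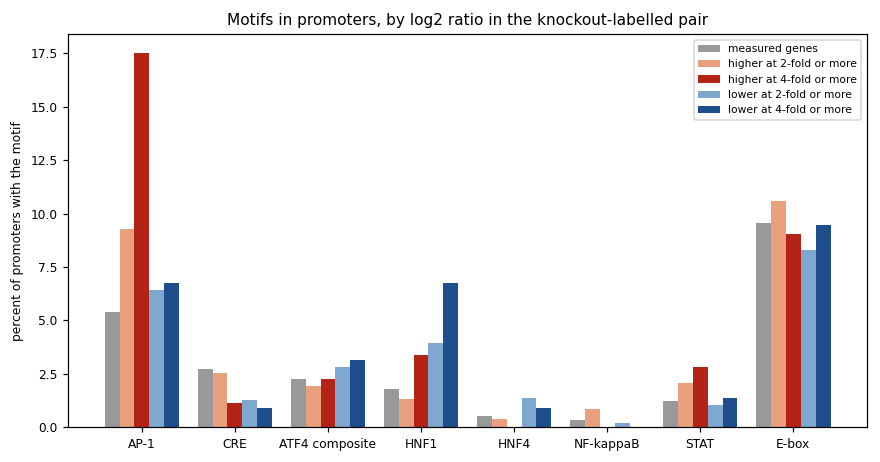
Percent of promoters (vertical axis) that hold each motif on either strand, for all measured genes (grey) and for genes higher (red) or lower (blue) at 2-fold and at 4-fold or more in the knockout-labelled pair. AP-1 reaches 17.5% in genes higher at 4-fold or more against 5.41% of measured genes, and HNF1 reaches 6.76% in genes lower and 3.39% in genes higher at 4-fold or more against 1.76%.

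Of 20 Kruppel-like and SP factors 5 were higher and 1, Klf15 (-1.23), lower. Klf6 went from 8.04 to 10.92 (7.35-fold higher), with 2.79 to 3.15 on its other probe sets, against 8.22 to 9.46 in wild type. Klf5 went from 6.43 to 8.66, with 0.35 on its other probe set, but read 8.15 in wild-type sham, and its ratio against that array was 0.51. Klf4 had 1.84, Klf10 1.65 and Klf11 1.39, of which Klf10 and Klf11 had 0.82 and 0.69 against wild-type sham. Sox9, a factor of regenerating tubule, went from 5.94 to 8.71 (6.81-fold higher), with 0.63 on its second probe set, against 5.81 to 6.50 in wild type. Among 30 nephron identity factors Irx1 (-2.31), Pou3f3 (-1.89) and Sim1 (-1.18) were lower, and Wt1 of the podocyte (1.14) higher. That is 10% lower and 3.33% higher, near the shares of all measured genes (6.89% and 6.06%). Sim1 had -0.60 as the median over its probe sets.

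The Hox, forkhead and Notch lists had no member called, unlike some other developmental families. Of 22 Hox genes, 28 forkhead genes and 15 Notch pathway genes, 0 were called in the knockout-labelled pair. Among all measured genes 6.06% were higher and 6.89% lower, so few calls would be expected in lists of this size. Of 16 FGF genes 3 were lower and 0 higher, and of 36 Wnt genes 3 were lower and 1 higher. Of 267 measured Zfp zinc finger genes 4 were higher and 10 lower, which is below the share among all measured genes in both directions.

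Clock genes were called in both directions. Of 18 measured 3 were higher and 4 lower, against 0 in the wild-type pair. Hlf, an output factor of the clock, read 10.09 in knockout-labelled sham and 7.57 after injury (5.74-fold lower), with -3.06 on its second probe set, against 10.14 and 10.09 in wild type. Dbp, a related output factor, went from 11.78 to 9.93 (3.61-fold lower), with -1.86 on its second probe set, against 11.80 to 11.56. Per3 (-1.63) and Per2 (-1.11) were lower, with -0.47 and -0.38 as medians over their probe sets. Per1 (1.36), Bhlhe40 (1.12) and Nr1d1 (1.11) were higher, but against wild-type sham these had 0.46, 0.32 and 0.77. The hour at which each kidney was taken is not given in the sources used here, so time of day and injury cannot be told apart for these genes.

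Some genes of cytokine signalling through gp130, the shared receptor chain of the interleukin-6 family, were called higher. The signalling itself was not measured. Of 18 measured genes 7 were higher and 0 lower (median 0.66), against 3 higher and 1 lower of 17 in wild type. The ligand Clcf1 was at least 16.8-fold higher, and the smallest log2 ratio of its 3 probe sets was 1.12. The oncostatin M receptor Osmr went from 7.61 to 9.71 (4.30-fold higher), with 0.64 on its other probe set, against 7.60 to 8.01 in wild type. The transducer Stat3 went from 9.73 to 11.41, with 0.24 to 2.02 on its other probe sets, and the feedback inhibitor Socs3 from 6.61 to 8.75 (4.40-fold higher). Il6ra (1.62), Bcl3 (1.51) and Pim1 (1.03) completed the list, with 0.42 for Pim1 against wild-type sham and 0.75 for Il6ra as the median over its probe sets.

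Of 21 genes linked to YAP and TEAD, the effectors of the Hippo pathway, 7 were higher and 1 lower, against 5 and 0 in wild type. Myof (2.88), Ankrd1 (at least 5.18-fold higher), Ccn1 (2.08), Ccn2 (1.95), Nuak2 (1.55), Tead1 (1.46) and F3 (1.32) were higher, and Ccn1 had 0.35 on plain _at probe sets alone. Tead1 had 0.93 as the median over its probe sets. Ccn2, connective tissue growth factor, went from 10.65 to 12.60 and read 10.56 and 10.38 in wild type. The lower one was Nt5e, with -1.10, and 0.08 against wild-type sham. Among growth factors, Egf went from 13.78 to 9.16 (24.6-fold lower) and from 13.82 to 12.36 in wild type. Hbegf, a ligand of the same receptor, went from 8.59 to 9.81 (0.71 against wild-type sham), and the receptor Egfr read 9.21 in both knockout-labelled arrays. The FGF23 co-receptor Kl (klotho) went from 12.65 to 10.04 (6.12-fold lower), with -0.79 on its other probe set. Sfrp2, a second Wnt inhibitor, went from 6.91 to 8.94, opposite to Sfrp1.

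Genes that neighbour one another were then read in the order of the RefSeq table. There were 31 runs of 3 or more consecutive measured genes called in the same direction, 12 higher and 19 lower, with 95 genes in them of 13578 placed in order. The fibrinogen genes Fgg (72.2-fold), Fga (29.1-fold) and Fgb (at least 58.5-fold), the subunits of the clotting protein, were higher side by side. S100a4, S100a6, S100a8 and S100a9 made a run of 4 higher genes (S100a4 had 0.88 against wild-type sham), and Serpina6, Serpina1f, Serpina1b and Serpina1c a run of 4 lower ones. Serpinb1a, Serpinb6b and Serpinb9 were neighbours on the higher side. Steap1 and Steap2 stood beside Cfap69, a cilium gene, with log2 ratios of 4.60, 2.05 and 2.88.

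Lower runs held families and unrelated neighbours alike. The carboxylesterases Ces1d, Ces1e and Ces1f had ratios between -1.43 and -1.33, and the transporters Slc22a29, Slc22a30 and Slc22a8 between -2.90 and -1.24. The class II genes H2-Ab1, H2-Aa and H2-Eb1, which present antigen, had ratios between -2.02 and -1.29. Hsd3b2 and Hsd3b3 stood next to Hao2, Ugt3a1 and Ugt3a2 next to Agxt2, and Inmt and Mindy4 next to Aqp1. Tet2 was itself in a lower run with Ints12, an Integrator subunit (-1.87), and Ppa2, a mitochondrial pyrophosphatase (-1.22). The second Ints12 probe set gave 0.27, so that run rests on 1 of its probe sets.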

How the data were processed

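Whole-kidney RNA was measured on 4 Affymetrix expression arrays, 1 per group, each from a pool of 3 mice. The authors deposited 1 log2 signal per probe set, a unit read from the values (2.51 to 14.97), and MAS5 is named per the submitters' processing notes, with no version or scaling. Array medians lay between 6.28 and 6.33, and no further normalization was applied.

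Each gene was read from the probe set with the highest mean signal that lists only that gene in the array's annotation. For 100 genes this was an _x_at probe set, which can bind other transcripts. Signals under the 40th percentile of all pooled signals (5.72) were set to that floor, and a fold against the floor is a lower bound. Symbols, gene order and promoters came from RefSeq tables of GRCm38.p6. Entrez identifiers of 34741 probe sets were found there.

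With 1 array per group no test was possible, and calls are at 2-fold. The alternatives were other floors, a pseudocount, other probe set choices, quantile normalization and other control arrays. Named genes are the 15 largest per direction whose probe sets all passed 2-fold; up to 5 per direction of each list, or any member of lists of at most 30; members of neighbour runs; the 10 genes most opposite between the pairs; and Tet2. Further amino acid catabolism genes, with Tagln and Myl9, were named outside this rule after their values were seen. Of 2944 list members 2882 were matched. The rule, the 85 lists and the comparison itself were chosen with earlier results of these data known, so no list supports a direction independently. The ratio calculation was tested on simulated data. Python 3.11.15, pandas 2.3.3, numpy 2.4.6 and matplotlib 3.10.9 were used.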

Additional observations from a re-analysis of the deposited data

Results flagged for a closer look

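For 10 genes the knockout-labelled and the wild-type pair passed 2-fold in opposite directions with the largest gaps among 23 such genes, of which 18 were higher and 5 lower in the knockout-labelled pair. The gap is the knockout-labelled log2 ratio minus the wild-type one, and the difference was not tested. It was 7.98 for Adipoq, 5.92 for Fabp4, 5.38 for Cox8b and 5.05 for Cidea, all genes of fat cells. The knockout-labelled ratio of Fabp4, 2.65, was 0.11 on plain _at probe sets alone and 0.81 against wild-type sham, so its call ended in both. Adipoq read under the floor in knockout-labelled sham and 9.31 after injury, but 10.11 in wild-type sham and under the floor after injury. Hp, haptoglobin, had a gap of 7.78, with 5.86 and 12.04 in the knockout-labelled arrays and 7.77 and 6.17 in wild type. Sptssb, a subunit of the first enzyme of sphingolipid synthesis, had 4.82, and Nupr1 had 4.29. The gap was 3.50 for Podxl, a podocyte and endothelial sialomucin, whose knockout-labelled ratio was 1.06 but 0.52 as the median over probe sets. The gap was 3.25 for the cell cycle inhibitor Cdkn1c and 3.17 for Sfrp2.

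The calls left aside the probe sets that are not in the array's annotation. Of these, 3629 were measured in the knockout-labelled pair. By 2-fold or more, 218 read higher and 99 read lower after injury. Among all measured genes 6.06% were higher and 6.89% lower. The share of these probe sets that read higher was close to the first, and the share that read lower was smaller than the second.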

How the results depend on the processing

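The counts of 824 higher and 937 lower genes stayed within 1.5 times under all 10 alternatives, from 614 and 760 with the floor added as a pseudocount to 902 and 1018 with neither floor nor filter. With wild-type sham as the control they were 867 and 899, of which 672 and 750 were shared genes.

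Among list medians past a log2 ratio of 1, that of the fat markers alone changed sign, to -0.52, with wild-type sham as the control. That of the urothelial markers, 0.70, had -0.32 there. With that control the log2 ratio also changed sign for Adipoq (-0.80), Cidea (-2.86), Cox8b (-1.77), Sptssb (-1.20), Nupr1 (-0.49), Gsta4 (-0.12), Nt5e (0.078) and Col5a2 (1.50). With the mean of both sham arrays it did for Cidea (-0.88) and Col5a2 (0.00299). Idh2 had 0.30 when plain _at probe sets alone were read. The cause was not tested. No other gene called in the text changed sign. Of 268 called genes named in the text, 31 no longer passed 2-fold with wild-type sham as the control, and of 269, 17 did not with the median over probe sets, 15 with the pseudocount and 3 after quantile normalization.

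No paired analysis was possible because each group has 1 array. Leaving out an array would leave no pair. Signals under the floor set the precision of low genes, and the 1 array a group limits that of all.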

Other observations

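Several families that the text above does not describe had members called in the knockout-labelled pair. Among 22 chemokine genes, 3 were higher (13.6%) and 1 lower (4.55%), beside 6.06% and 6.89% of all measured genes. Cxcl1, which draws neutrophils, had a log2 ratio of 2.17 in the knockout-labelled pair and 2.30 in the wild-type pair. Cxcl2, of the same group, was under the floor in knockout-labelled sham and read 7.99 after injury, at least 4.83-fold higher, while in injured wild type it read 5.85. Among 20 genes of the TNF superfamily, Tnfrsf12a, the TWEAK receptor, went from 8.81 to 12.19, and the death ligand Tnfsf10 from 9.80 to 7.51. Among 38 interferon-induced genes 5 were higher (13.2%) and 2 lower (5.26%), led by the guanylate-binding protein Gbp8 with 2.57.

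Metal carriers were called at shares near those of all measured genes. Of 25 zinc, iron and copper transporters 2 were higher and 2 lower (8% each), beside 6.06% and 6.89% of all measured genes. Slc39a8, a zinc and manganese importer, was 7.91-fold lower (10.86 to 7.87). Slc39a6 had a log2 ratio of 1.60, and 0.86 as the median over its probe sets. Of 35 ABC transporters 4 were higher and 4 lower (11.4% each). The drug efflux pump genes Abcb1b (1.87) and Abcb1a (at least 3.44-fold higher) were among the higher ones, and Abca13 (-3.39) had the lowest ratio of that list. Of 16 ephrin and Eph receptor genes Epha2 alone was called, at 1.95.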
